A study of Mus musculus with 6 samples.

Results

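The 34 genes described here encode enzymes of cholesterol synthesis and proteins that sense, move, export or esterify sterols. They were taken by symbol from a count table of 54532 genes, and all 34 were found and passed the filter on low counts, which left 14530 genes. The samples are CD4+ T cells from C57BL/6 mouse spleen, cultured for 72 h in Th1 (T helper 1) conditions, either without drug (control, 3 libraries) or with idelalisib, a drug that blocks the delta form of phosphoinositide 3-kinase (idelalisib, 3 libraries). The strain, cell type, polarising conditions and duration were shared by both groups, so every value below belongs to Th1 cultures. The labels call the replicates biological. Whether they came from separate mice is not given in the sources used here, nor are the dose, the vehicle and the age of the mice, so the p-values speak only of variation among these cultures, and part of it may be technical.

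Cholesterol is made from acetyl-CoA in the endoplasmic reticulum, first through the mevalonate arm, which yields isoprenoids, and then through squalene and a series of sterols. The pathway is controlled by the SREBP transcription factors, which the escort protein Scap carries to the Golgi for cleavage when sterols are low and which the Insig proteins hold back when sterols are high. When sterols accumulate, oxysterols activate the LXR nuclear receptors, which raise genes of sterol efflux, and the Soat enzymes store cholesterol as esters. Activated T cells are known to raise sterol synthesis through SREBP to build membrane as they divide, and phosphoinositide 3-kinase, Akt and mTORC1 signalling is among the inputs to SREBP.

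Of the 34 genes, 8 gave a call that held in every analysis run, 5 of them higher and 3 lower with idelalisib. Abca1, the main sterol efflux pump, fell 3.09-fold, Soat2, a cholesterol esterifying enzyme, fell 2.05-fold, and Npc1, which releases cholesterol from lysosomes, fell 1.44-fold. Dhcr7, the last enzyme of one branch of sterol synthesis, rose 1.79-fold, Acat2, at the entry to the pathway, rose 1.59-fold, Hmgcs1, which makes HMG-CoA, rose 1.30-fold, and Sqle, which oxidises squalene, rose 1.29-fold. Mylip, a ubiquitin ligase and LXR target, rose 2.11-fold from a low level. These calls held in all 16 alternative analyses. In the fit reported here 44.6% of all genes tested were called. The share of all genes whose call held in every alternative is not given, so the 8 have no like share beside them. The synthesis enzymes Mvd and Fdft1 were lower, at -0.34 and -0.23 in log2 units, with calls that some alternatives lost. Srebf1 and Srebf2, which encode the SREBP factors, and Scap did not pass the test.

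Of the 34 genes, 9 rose and 5 fell under idelalisib, taking as called an adjusted p under 0.05 from the quasi-likelihood test of edgeR (Benjamini-Hochberg over 14530 genes, n = 3 per group), and 20 were not called. The 14 calls are 41.2% of the genes, against 44.6% of all genes tested (22.2% higher and 22.4% lower), so the share called was near that of the whole transcriptome. The median log2 fold change, idelalisib over control, was 0.01 over the 34 genes and 0.01 over all genes tested. The groups did not overlap in 18 of the 34 genes, which is 52.9% against 54.6% of all genes tested. At an absolute log2 fold change of at least 0.5, 7 of the 34 genes were called, against 28.1% of all genes tested. The list as a whole therefore did not stand apart in these counts, and the description below is by role and by gene.

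**Figure D1:**
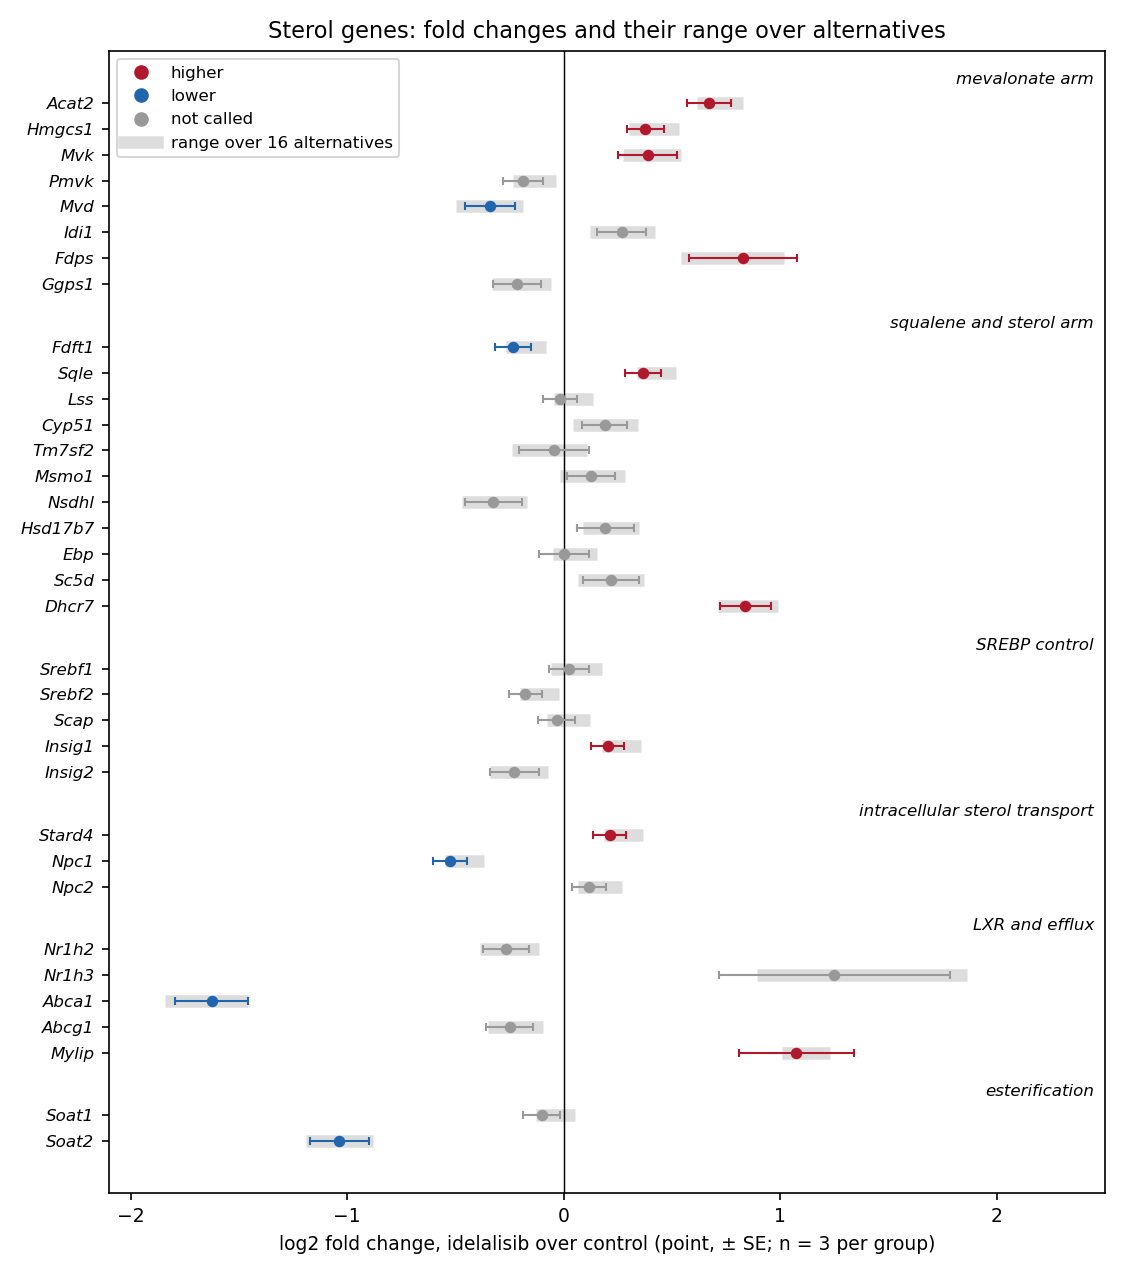
Log2 fold change (idelalisib over control) of each of the 34 genes, grouped by role. Points are coloured by the edgeR call, bars are ± SE (n = 3 per group), and grey bands span the values from 16 alternative analyses. Abca1 and Soat2 lie farthest to the left, and the bands of 7 genes that were not called cross 0.

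Total counts ranged from 13372318 to 16770452 per library. Levels are given as CPM, a gene's count scaled to the depth of its library with TMM factors. The second principal component, with 11.8% of the variance, set idelalisib replicate 2 apart. The labelled cell type was checked by its markers: 7 T cell genes summed to 2409 to 2445 CPM without drug and 2444 to 2580 CPM with it, and Cd4 and Zbtb7b together to 646.1 to 710.9 and 520.3 to 625.2 CPM, while Cd8a, which was higher with idelalisib, and Cd8b1 summed to at most 9.50 CPM. Of 8 B cell markers 4 were higher with idelalisib, and the list summed to 5.86 to 7.13 CPM without drug and 11.2 to 13.1 CPM with it. Of 4 neutrophil markers 2, Ly6g and Cxcr2, were higher (summed level 48.3 to 50.04 against 118.7 to 147.8 CPM), while S100a8 and S100a9 had at most 3 counts in any library. The part of these cells in the sterol genes was not tested. In bulk samples fewer cells of a type and less RNA per cell cannot be told apart.

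The mevalonate arm runs from acetyl-CoA to the isoprenoid diphosphates. Of its 8 genes 4 were higher (50% against 22.2% of all genes tested) and 1 was lower (12.5% against 22.4%). The median log2 fold change was 0.32 against 0.01 over all genes. Among the 4 were Fdps, which was not called once reads of its copies were added, and Mvk, whose call was lost in 6 of 16 alternatives. The lower gene, Mvd, lost its call in 7. Acat2, the cytosolic thiolase that joins acetyl-CoA units, was at 62.1, 50.6 and 51.5 CPM without drug, against 77.9, 91.8 and 91.97 CPM under idelalisib. All idelalisib values lay above all control values, and the difference was 0.67 ± 0.10 in log2 units (SE, adjusted p = 0.000137 by edgeR). Acat2 lies on mm10 chromosome 17 (12942890 to 12960747, minus strand) beside its near copy Acat3, with which it shares 1011 of the 2586 distinct 50-base words of its transcripts. Acat3 had at most 39 counts per library against at least 720 for Acat2, and with the reads of both summed the log2 fold change was 0.64 (edgeR adjusted p = 0.000191).

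Hmgcs1, the HMG-CoA synthase gene (mm10 chromosome 13, 119690379 to 119708260, plus strand), was at 120.1, 128.5 and 127.6 CPM without drug, against 155.7, 181.1 and 151.9 CPM under idelalisib. Its groups did not overlap, and the difference was 0.38 ± 0.09 in log2 units (SE, adjusted p = 0.00287 by edgeR). Hmgcs1 is a classic SREBP target. Acat2, Hmgcs1 and Insig1 were the genes, among the 27 of 34 with a promoter in the RefSeq table (build GRCm38.p6), whose promoter held the motif CACNCCAC, the core of the sterol regulatory element (SRE), on either strand. A promoter here is the 250 bases before and 50 bases after the annotated start. The motif occurred in 3 of these 27 promoters, or 11.1%, against 6.24% of all 32851 promoters in the table and 6.19% of those of tested genes. All 3 genes were called higher, as were 26.5% of the 34 genes and 22.2% of all genes tested. The share over the 34 includes genes that had no promoter to search. These were Sqle, Fdps and Stard4, called higher, Fdft1, Npc1 and Soat2, called lower, and Abcg1, not called. The call of Insig1 was lost in 10 of 16 alternatives. Mvk, Dhcr7 and Mylip were higher without a match in their windows. A link between the motif and the direction of change was not tested. A match describes the letters in this window and does not show that a factor binds. The promoters of Hmgcs1, Acat2 and Insig1 are printed 5′ to 3′ with the motif, or its reverse complement, in capitals. They are the ones in which the pathway's known control motif was found.

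Hmgcs1 (chr13:119690101-119690400, plus strand): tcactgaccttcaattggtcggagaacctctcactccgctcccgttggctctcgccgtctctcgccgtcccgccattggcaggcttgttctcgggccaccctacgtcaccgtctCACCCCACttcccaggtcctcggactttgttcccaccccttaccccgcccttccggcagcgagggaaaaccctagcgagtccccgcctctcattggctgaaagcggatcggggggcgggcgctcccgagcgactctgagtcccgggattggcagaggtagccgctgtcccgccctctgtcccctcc
Acat2 (chr17:12960676-12960975, minus strand): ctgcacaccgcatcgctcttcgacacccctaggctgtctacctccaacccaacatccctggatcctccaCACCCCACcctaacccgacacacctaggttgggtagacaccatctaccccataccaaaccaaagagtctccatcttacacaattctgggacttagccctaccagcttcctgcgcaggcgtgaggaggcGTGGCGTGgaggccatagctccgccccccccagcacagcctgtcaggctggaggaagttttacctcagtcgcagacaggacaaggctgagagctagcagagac
Insig1 (chr5:28071162-28071461, plus strand): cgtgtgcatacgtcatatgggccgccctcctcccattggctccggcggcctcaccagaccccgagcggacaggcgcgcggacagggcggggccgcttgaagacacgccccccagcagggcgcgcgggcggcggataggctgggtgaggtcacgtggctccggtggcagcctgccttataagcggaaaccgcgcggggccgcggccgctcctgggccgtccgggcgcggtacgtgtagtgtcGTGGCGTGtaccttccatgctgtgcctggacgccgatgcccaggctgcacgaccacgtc

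The motif began 136 bases before the start in Hmgcs1, 181 and 53 bases before it in Acat2 and 9 bases before it in Insig1. The CCAAT box, the site of the SREBP partner NF-Y, was searched on both strands as CCAAT and occurred in 14 of 16 synthesis enzyme promoters in the table, or 87.5%, against 37.4% of all promoters and 39.0% of those of tested genes. It was present in Hmgcs1 but had no match in the windows of Acat2 and Dhcr7. In Hmgcs1 and Insig1, which hold both, the SRE core and CCAAT matches do not overlap. The GC box, searched as GGGCGG, occurred in 87.5% of these enzyme promoters, in 35.7% of all promoters and in 64.5% of those of tested genes. These motifs were present in enzymes that rose and in enzymes that were not called alike: Cyp51, Lss and Msmo1 hold both a CCAAT box and a GC box.

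The other genes of the mevalonate arm moved by smaller or less certain amounts. Mvk, mevalonate kinase, was at 15.5, 15.1 and 16.7 CPM without drug, against 20.5, 17.2 and 24.01 CPM under idelalisib (0.39 ± 0.14 SE in log2 units, adjusted p = 0.0335 by edgeR). Its call was lost without any 1 of the control libraries and without idelalisib replicate 1 or 3, with adjusted p between 0.0608 and 0.119. Mvd, which decarboxylates mevalonate diphosphate, went the other way, from 67.6, 67.9 and 72.4 CPM to 49.4, 47.9 and 66.7 CPM (-0.34 ± 0.12 SE in log2 units, adjusted p = 0.0271 by edgeR). Idelalisib replicate 3 lay just under the lowest control value, and the call was lost without any 1 library other than idelalisib replicate 3, with adjusted p between 0.0558 and 0.139, and when scaled by library size alone (0.184). Pmvk, phosphomevalonate kinase, and Ggps1, the geranylgeranyl diphosphate synthase, were not called at -0.19 and -0.22 on the log2 scale. Without idelalisib replicate 2 Ggps1 was called at -0.33 (edgeR adjusted p = 0.00948). Idi1, the isomerase that makes the allylic isoprenoid, was not called at 0.27 (edgeR adjusted p = 0.0678) and its groups did not overlap. It was called without idelalisib replicate 1 (0.0416) or 3 (0.0328), and was at 0.12 (0.279) without replicate 2.

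Fdps, farnesyl diphosphate synthase, had the fewest reads of the pathway's enzymes. It was at 3.32, 3.17 and 4.15 CPM without drug, against 4.67, 8.71 and 5.55 CPM under idelalisib, a log2 difference of 0.83 ± 0.25 (SE, adjusted p = 0.0152 by edgeR). The highest value, in idelalisib replicate 2, was well apart from the other libraries, and without that library the log2 fold change was 0.54 (0.0655). The call was also lost without control replicate 1 (0.0571) or 2 (0.0594). Of the 4398 distinct 50-base words of Fdps transcripts, 1152 also occur in other genes, among them the copies Gm3571 and Gm5873. Gm3571 had 251 to 348 counts per library against 48 to 123 for Fdps itself. With the reads of Fdps, Gm3571 and Gm5873 summed, the level was 26.7 ± 3.84 CPM without drug and 28.7 ± 3.77 CPM with it (SD, n = 3). The difference was 0.10 ± 0.13 in log2 units (SE, adjusted p = 0.550 by edgeR). Fdps was thus called as deposited and was not called once reads of its copies were added.

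The squalene and sterol arm turns farnesyl units into squalene and then into cholesterol. Of its 11 genes 2 were higher, 1 was lower and 8 were not called, so 27.3% were called against 44.6% of all genes tested, and the median log2 fold change was 0.13. Dhcr7, which reduces the last double bond in the sterol ring on the way to cholesterol (mm10 chromosome 7, 143823145 to 143848410, plus strand), was at 31.2, 28.6 and 22.5 CPM without drug, against 45.7, 51.05 and 50.6 CPM under idelalisib. The groups were well separated, and the log2 difference of 0.84 ± 0.12 (SE, adjusted p = 7.09e-05 by edgeR) was the largest among the enzymes, and stayed between 0.71 and 0.99 in 16 alternatives. Sqle, squalene epoxidase, a rate-limiting step of the arm (mm10 chromosome 15, 59315077 to 59331192, plus strand), was at 69.7, 73.1 and 71.9 CPM without drug, against 84.98, 95.2 and 96.6 CPM under idelalisib. Its groups did not overlap and its log2 fold change was 0.37 (SE 0.08, adjusted p = 0.00284 by edgeR).

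Fdft1, squalene synthase, was the enzyme of this arm that was lower, at 141.8, 141.7 and 136.03 CPM without drug, against 108.4, 125.5 and 122.9 CPM under idelalisib (-0.23 ± 0.08 SE in log2 units, adjusted p = 0.0324 by edgeR). Its call was lost without any 1 of the control libraries or idelalisib replicate 1, with adjusted p between 0.0664 and 0.175, with the replicate number as a block (0.0564) and when scaled by library size alone, at -0.08 (0.443). Fdft1 shares 18.3% of its exon bases with Ctsb on the opposite strand, so without a known strand setting its reads may be mixed with those of Ctsb. Nsdhl, a sterol dehydrogenase of the demethylation steps, was not called at -0.32 (edgeR adjusted p = 0.0582) but was called at -0.47 without idelalisib replicate 2 (0.00130). The remaining genes were Lss, lanosterol synthase, Cyp51, which removes the first methyl group, Tm7sf2, a sterol reductase, Msmo1, the methylsterol oxidase, Hsd17b7, a sterone reductase, Ebp, a sterol isomerase, and Sc5d, a sterol desaturase. Their log2 fold changes lay between -0.04 (Tm7sf2) and 0.22 (Sc5d) and none passed the test, with edgeR adjusted p from 0.154 (Cyp51) to 0.990 (Ebp).

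Across the 19 synthesis enzymes, 6 were higher (31.6% against 22.2% of all genes tested) and 2 were lower (10.5% against 22.4%). The 42.1% called were near the 44.6% of all genes tested. Among the 6 was Fdps, which was not called once reads of its copies were added. The split depends on the scaling: by library size alone, which moved the median of all genes from 0.01 to 0.16, 11 were higher and 0 were lower. The median of the enzymes moved with it, from 0.19 to 0.34. It was 0.0673 without idelalisib replicate 2, when 5 were higher and 3 lower, and 0.0965 without control replicate 1, when 4 were higher and 0 lower. Summed over the 19 enzymes, the level was 1183, 1172 and 1199 CPM without drug, against 1190, 1436 and 1285 CPM under idelalisib. The control values lay close together, idelalisib replicate 1 lay among them and replicate 2 was the highest. Idelalisib replicate 2 had the highest value of the idelalisib group in 13 of the 19 enzymes, and replicate 1 the lowest in 13. The spread was wider under idelalisib than in control for 17 of the 19 enzymes, or 89.5%, against 66.8% of all genes tested.

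Idelalisib replicate 2 was high for Cyp51 (237.1 CPM against 177.3 and 178.4 CPM in the other idelalisib libraries), Msmo1 (109.7 against 80.8 and 84.1 CPM), Sc5d (85.5 against 60.4 and 65.99 CPM) and Idi1 (69.9 against 51.5 and 52.5 CPM). All idelalisib values of Cyp51 and Idi1 lay above the control values, those of replicates 1 and 3 by little. Without replicate 2 the log2 fold change of Idi1 was 0.12, that of Cyp51 0.05, that of Msmo1 -0.01 and that of Sc5d 0.07. In the same library 3 of the 19 enzymes, Mvd, Tm7sf2 and Mvk, were at the lowest value of the group, so the enzymes did not all vary together as 1 block. Srebf1, which is not among the enzymes, was also lowest there. The rises of Acat2, Hmgcs1, Sqle and Dhcr7 did not rest on that library, since without it the adjusted p of each by edgeR was at most 0.00175.

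**Figure D2:**
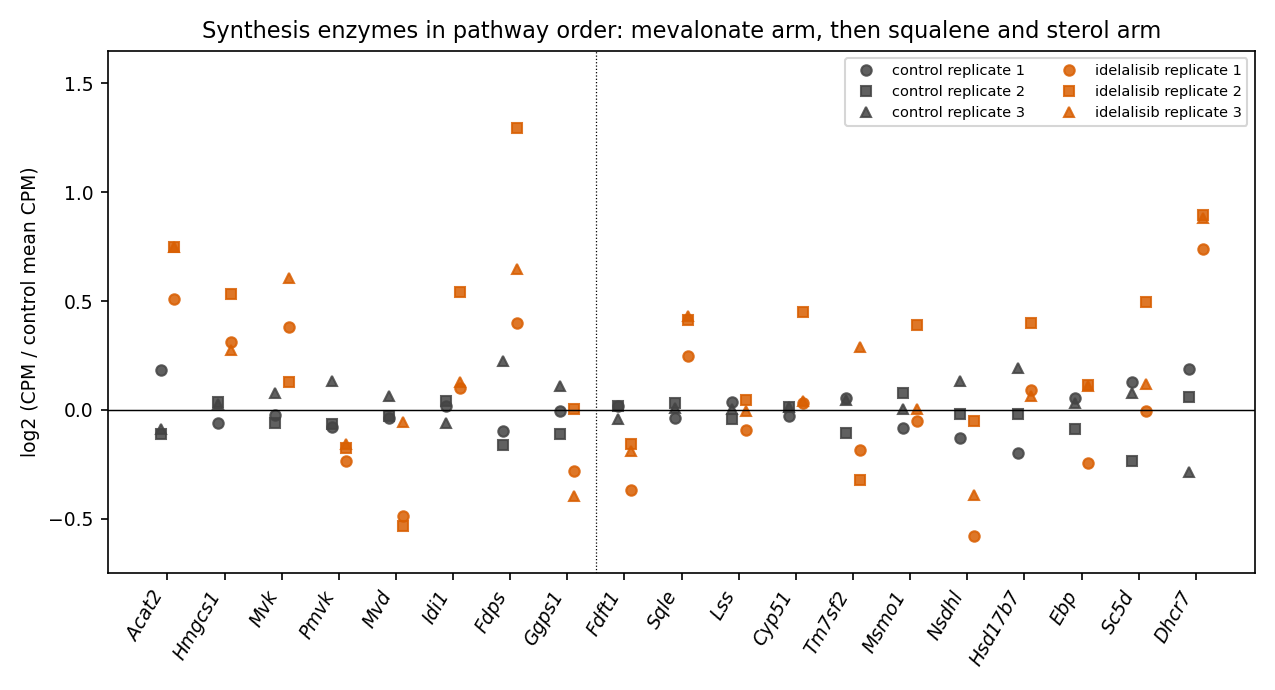
Log2 of the CPM of each library over the control mean for the 19 synthesis enzymes in pathway order, with control in grey and idelalisib in orange (circle, square and triangle for replicates 1, 2 and 3). Dhcr7 and Acat2 lie above 0 in all idelalisib libraries, while for Msmo1 and Sc5d the square, replicate 2, stands apart from the other libraries, and for Cyp51 it stands far above the other idelalisib points, which lie just above the control points.

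Levels between enzymes were compared per kilobase of the gene model. In control cells Cyp51 (39.3 CPM per kb), Mvd (37.3) and Fdft1 (33.1) were highest among the enzymes, Mvk (5.89), Dhcr7 (4.72) and Hsd17b7 (4.62) were low, and Tm7sf2 (2.52) and Fdps as deposited (0.842) were lowest. The enzyme with the largest rise, Dhcr7, was thus among those with the least mRNA per kilobase. Srebf2 stood at 78.6 and Npc2 at 105.8 CPM per kb, above all 19 enzymes.

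Of the 5 genes of SREBP control, 1, Insig1, was called. Srebf2, which encodes the SREBP that mainly drives sterol genes (mm10 chromosome 15, 82147181 to 82205379, plus strand), was at 571.4, 553.3 and 570.3 CPM without drug, against 500.8, 472.7 and 526.2 CPM under idelalisib. All idelalisib values lay under the control values, but the log2 fold change of -0.18 (SE 0.08) missed the threshold (adjusted p = 0.0703 by edgeR). It passed without idelalisib replicate 3 (0.0203) and among protein-coding genes alone (0.0348). Srebf1, which encodes the SREBP forms tied mainly to fatty acid genes, was at 198.3, 214.7 and 201.6 CPM without drug, against 207.6, 182.2 and 235.5 CPM under idelalisib, with full overlap (0.03 ± 0.09 SE in log2 units, adjusted p = 0.846 by edgeR). Scap, the SREBP escort, was at 87.3, 81.5 and 85.1 CPM without drug, against 82.6, 76.3 and 89.2 CPM under idelalisib (-0.03 ± 0.09 SE in log2 units, adjusted p = 0.778 by edgeR).

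Insig1, the endoplasmic reticulum anchor that is itself an SREBP target, was at 90.7, 91.4 and 91.7 CPM without drug, against 108.5, 101.8 and 104.6 CPM under idelalisib. The control values were nearly equal and all idelalisib values lay above them, and the difference was 0.20 ± 0.08 in log2 units (SE, adjusted p = 0.0458 by edgeR). The call was close to the threshold and was lost in 10 of 16 alternatives, among them DESeq2 (0.0615), the replicate block (0.0875) and the fits without any 1 control library or without idelalisib replicate 1 (0.106 to 0.157). Insig2, the other anchor, was not called at -0.23 (SE 0.11, adjusted p = 0.115 by edgeR), and was called without idelalisib replicate 2 at -0.34 (0.00877). A test of the difference between Insig1 and Insig2 was not made.

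The genes for moving cholesterol inside the cell differed in outcome, and only the call of Npc1 held in every alternative. Npc1, the lysosomal membrane protein that exports cholesterol (mm10 chromosome 18, 12189693 to 12236400, minus strand), was at 183.4, 174.4 and 178.3 CPM without drug, against 130.3, 118.3 and 123.98 CPM under idelalisib. The groups were far apart relative to their spread, and Npc1 fell by 0.52 on the log2 scale (SE 0.08, adjusted p = 0.000103 by edgeR). Npc2, the soluble partner that hands cholesterol to Npc1, was at 575.6 ± 14.9 and 624.3 ± 50.9 CPM (SD, n = 3) and was not called (log2 fold change 0.12, edgeR adjusted p = 0.253). Without idelalisib replicate 2 it was called at 0.18 (0.0429). Stard4, a cytosolic sterol carrier and SREBP target, was at 141.7 ± 2.78 and 164.1 ± 5.11 CPM, a log2 difference of 0.21 ± 0.07 (SE, adjusted p = 0.0326 by edgeR). Its groups did not overlap, but the call was lost without any 1 control library or idelalisib replicate 1 (0.0822 to 0.128) and with the replicate block (0.0684).

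Abca1 had the largest fall of the 34 genes. It encodes the transporter that loads cholesterol onto apolipoproteins outside the cell, and lies on mm10 chromosome 4 (53030787 to 53159895, minus strand). It had 1789, 1515 and 1768 counts without drug and 524, 665 and 473 with it, or 111.9, 100.1 and 126.4 CPM against 34.5, 47.1 and 28.2 CPM. The highest idelalisib value, in replicate 2, lay far below the lowest control value, and the difference was -1.63 ± 0.17 in log2 units (SE, adjusted p = 4.34e-05 by edgeR), between -1.84 and -1.46 in 16 alternatives. None of the 50-base words of its transcripts occur in other genes. Abca1 is also strongly expressed by macrophages, and the 10 macrophage and monocyte markers summed to 17.4 to 18.3 CPM without drug and 10.2 to 13.7 CPM with it. Of these 10, 9 had too few counts to be tested and 1, Cd68, was lower, and the defining markers Adgre1, C1qa and C1qb had at most 1 count in any library.

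The Abca1 promoter is printed because it holds a match to an LXR response element of the DR4 type, a direct repeat of the receptor half-site searched on both strands, the form known from this gene. Among the 27 promoters only that of Abca1 held it, and it occurred in 0.207% of all promoters in the table and in 0.141% of those of tested genes. The reverse complement of the element, starting 67 bases before the start, and the E-box CACGTG, starting 147 bases before it, are in capitals and do not overlap. The E-box occurred in 7.15% of all promoters, in 10.2% of those of tested genes and in 18.5% of the 27.

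Abca1 (chr4:53159846-53160145, minus strand): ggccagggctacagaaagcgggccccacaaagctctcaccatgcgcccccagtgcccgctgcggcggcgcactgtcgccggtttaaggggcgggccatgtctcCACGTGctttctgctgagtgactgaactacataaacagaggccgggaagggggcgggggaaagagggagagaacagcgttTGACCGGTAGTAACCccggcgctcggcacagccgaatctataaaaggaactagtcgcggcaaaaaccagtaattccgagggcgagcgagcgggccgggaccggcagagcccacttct

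Of the other genes among the 34 known as LXR targets, Abcg1 and Srebf1 were not called and Mylip was higher, and their difference from Abca1 was not tested. Of known LXR targets outside the 34, which were not all looked at here, Scd1 was lower (-0.38 in log2 units) and Lpcat3 was higher (0.54). Fasn, from the same fatty acid list as Scd1, was higher (0.63). Pltp and Smpdl3a, from the list of LXR partners or targets given below, were not called. Abcg1, the transporter that works with Abca1 in efflux, was at 52.6, 48.1 and 56.6 CPM without drug, against 37.8, 50.5 and 44.02 CPM under idelalisib. These values overlapped, and the log2 fold change of -0.25 (SE 0.11) missed the threshold (adjusted p = 0.0785 by edgeR). Without idelalisib replicate 2 Abcg1 was called at -0.35 (0.00609). Mylip, the ubiquitin ligase IDOL that sends lipoprotein receptors to degradation (mm10 chromosome 13, 45389742 to 45412022, plus strand), had 24, 26 and 24 counts in control and 42, 54 and 64 counts in idelalisib libraries, or 1.502, 1.72 and 1.72 against 2.76, 3.82 and 3.82 CPM. It rose by 1.08 on the log2 scale (SE 0.27, adjusted p = 0.00472 by edgeR), with no overlap between the groups. Srebf1, also known as an LXR target, is given above and overlapped between the groups.

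The LXR genes themselves were not called. Nr1h2, which encodes LXR beta, was at 128.3, 126.96 and 116.8 CPM without drug, against 100.1, 88.1 and 120.8 CPM under idelalisib. Idelalisib replicate 3 lay within the control range, and the log2 fold change of -0.27 (SE 0.11) just missed the threshold (edgeR adjusted p = 0.0525). It passed in 7 of 16 alternatives, among them DESeq2 (0.0407), limma-voom (0.0455) and leaving out idelalisib replicate 3, at -0.39 (0.00242). Nr1h3, which encodes LXR alpha, was close to the limit of detection, with 6, 3 and 11 counts in control and 18, 8 and 24 counts in idelalisib libraries. These overlap, and the log2 fold change of 1.25 (SE 0.53) did not pass (edgeR adjusted p = 0.0711). Without control replicate 3 it was called at 1.86 (0.0369), and without idelalisib replicate 2 at 1.55 (0.0219). Per kilobase, Nr1h2 was at 36.98 and Nr1h3 at 0.180 CPM per kb in control cells, so nearly all LXR mRNA in these libraries was Nr1h2.

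Of the pair of esterifying enzymes, Soat2 was called and Soat1 was not, and the difference between them was not tested. Soat2 (mm10 chromosome 15, 102150526 to 102163469, plus strand), best known from intestine and liver, was at 41.1, 43.7 and 36.5 CPM without drug, against 19.1, 16.002 and 23.9 CPM under idelalisib. The groups did not overlap, and Soat2 fell by 1.04 on the log2 scale (SE 0.14, adjusted p = 4.09e-05 by edgeR), between -1.19 and -0.88 in 16 alternatives. Soat1, the widely expressed form, was at 61.9, 60.1 and 57.9 CPM without drug, against 58.9, 51.8 and 56.98 CPM under idelalisib (-0.10 ± 0.09 SE in log2 units, adjusted p = 0.359 by edgeR), and its sign turned when scaled by library size alone (0.05). Per kilobase, Soat2 was above Soat1 in control cells, at 18.3 against 6.13 CPM per kb, and at 8.88 against 5.71 CPM per kb in idelalisib cells.

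**Figure D3:**
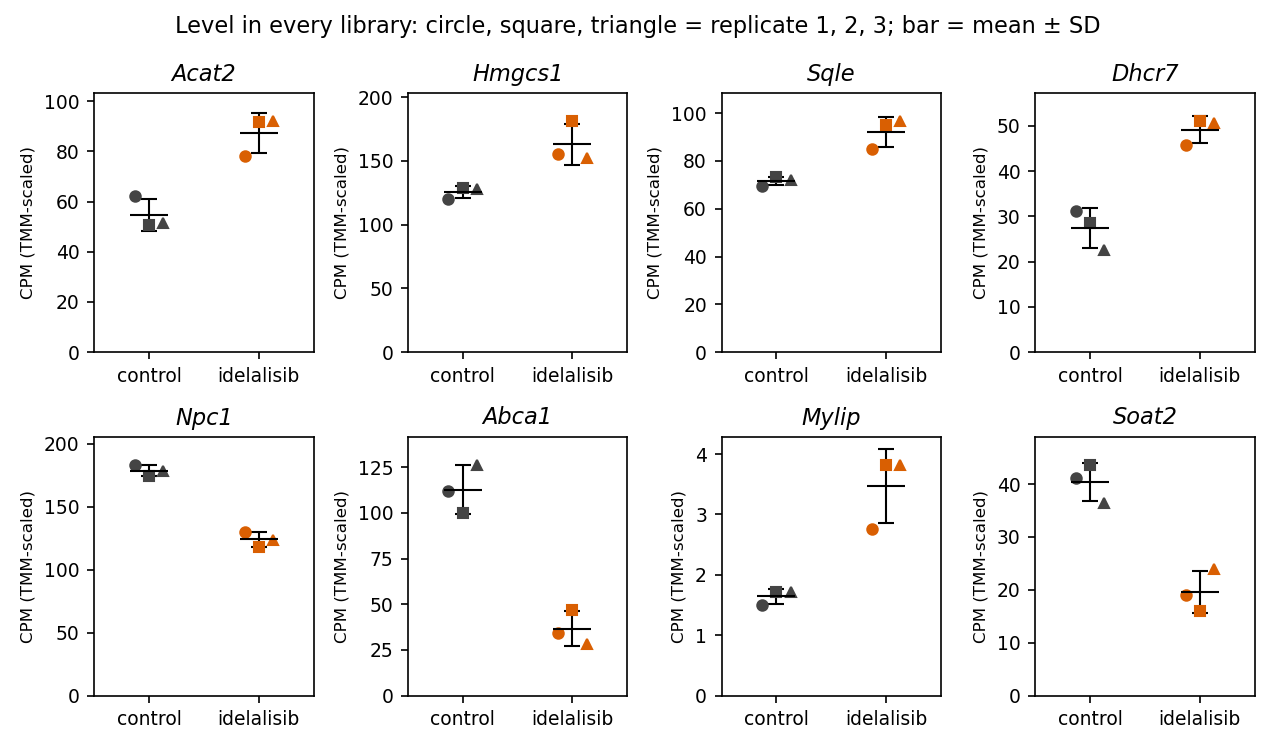
CPM (scaled with TMM factors) in every library of the 8 genes whose call held in 16 alternatives, with mean ± SD (n = 3 per group). No idelalisib point overlaps the control points in any panel: Acat2, Hmgcs1, Sqle, Dhcr7 and Mylip lie above them, and Npc1, Abca1 and Soat2 below.

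Related lipid genes outside the 34 were read from lists by function. Of 16 genes of fatty acid synthesis and desaturation, the main programme of SREBP encoded by Srebf1, 7 were higher (43.8% against 22.2% of all genes tested) and 2 lower (12.5% against 22.4%), with a median log2 fold change of 0.31. Fasn, fatty acid synthase, rose from 239.5 ± 3.44 to 369.8 ± 6.89 CPM (0.63 ± 0.07 SE in log2 units, adjusted p = 1.34e-05 by edgeR). Acaca, acetyl-CoA carboxylase, rose by 0.62. The 2 lower genes were Acsl3, an acyl-CoA synthetase, at -0.53, and Scd1, a desaturase, at -0.38 (edgeR adjusted p = 0.0259).

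Of 12 genes that cleave, retain or degrade SREBP and its partners, 3 were higher (25% against 22.2% of all genes tested) and 5 lower (41.7% against 22.4%). The higher ones were the ubiquitin ligase genes Fbxw7, which marks nuclear SREBP for degradation, at 0.54, and Rnf139, at 0.53, and Pgrmc1, a membrane haem protein, at 0.33. The largest fall was that of Ube2g2, a conjugating enzyme of endoplasmic reticulum degradation, at -0.39. Mbtps1 and Mbtps2, the proteases that release SREBP, named after their values were seen, were not called (adjusted p = 0.402 and 0.0628 by edgeR).

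Of 13 genes that use isoprenoids from the mevalonate arm, 4 were higher and 2 lower, and the 46.2% called were near the 44.6% of all genes tested. Coq2, which joins the isoprenoid tail to the ubiquinone ring, rose from 24.1 ± 2.75 to 47.5 ± 4.34 CPM (0.98 ± 0.11 SE in log2 units, adjusted p = 1.18e-05 by edgeR), and Pdss1, which builds that tail, rose by 0.66. The lower genes were Rabggtb and Rabggta, subunits of the enzyme that adds geranylgeranyl groups to Rab proteins, at -0.92 (edgeR adjusted p = 8.38e-07) and -0.39 (0.00358).

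Of 16 genes of lipoprotein uptake and of lysosomal and contact-site sterol transport, 4 were higher (25% against 22.2% of all genes tested) and 5 lower (31.2% against 22.4%). Gramd1a, which carries plasma membrane cholesterol to the endoplasmic reticulum, fell from 774.5 ± 12.2 to 441.7 ± 33.2 CPM (-0.81 ± 0.08 SE in log2 units, adjusted p = 3.09e-06 by edgeR), and the oxysterol-binding protein gene Osbpl9 fell by 0.82 in log2 units. The other lower genes, named after their values were seen, were the lipoprotein receptor Vldlr, at -0.72 (edgeR adjusted p = 0.00292), and Stard3 and Scarb2, each at -0.47. Of the 4 higher genes, the lipid transfer genes Osbpl5 and Osbpl2 rose by 1.28, from 2.70 ± 0.607 CPM, and by 0.32. The lipoprotein receptor Lrp8 rose by 0.34 and the lysosomal lipase Lipa by 0.27 (edgeR adjusted p = 0.0372). Of 12 genes of oxysterol metabolism and LXR partners or targets, 7 could be tested, of which 2 were higher and 1 lower, and the 42.9% called were near the 44.6% of all genes tested. Lpcat3, a phospholipid remodelling enzyme and LXR target, was at 0.54 (edgeR adjusted p = 0.000441), and the LXR partners Rxra and Rxrb were at 0.53 and -0.38. The oxysterol-producing enzymes Ch25h and Cyp27a1 were under the filter on counts.

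**Figure D4:**
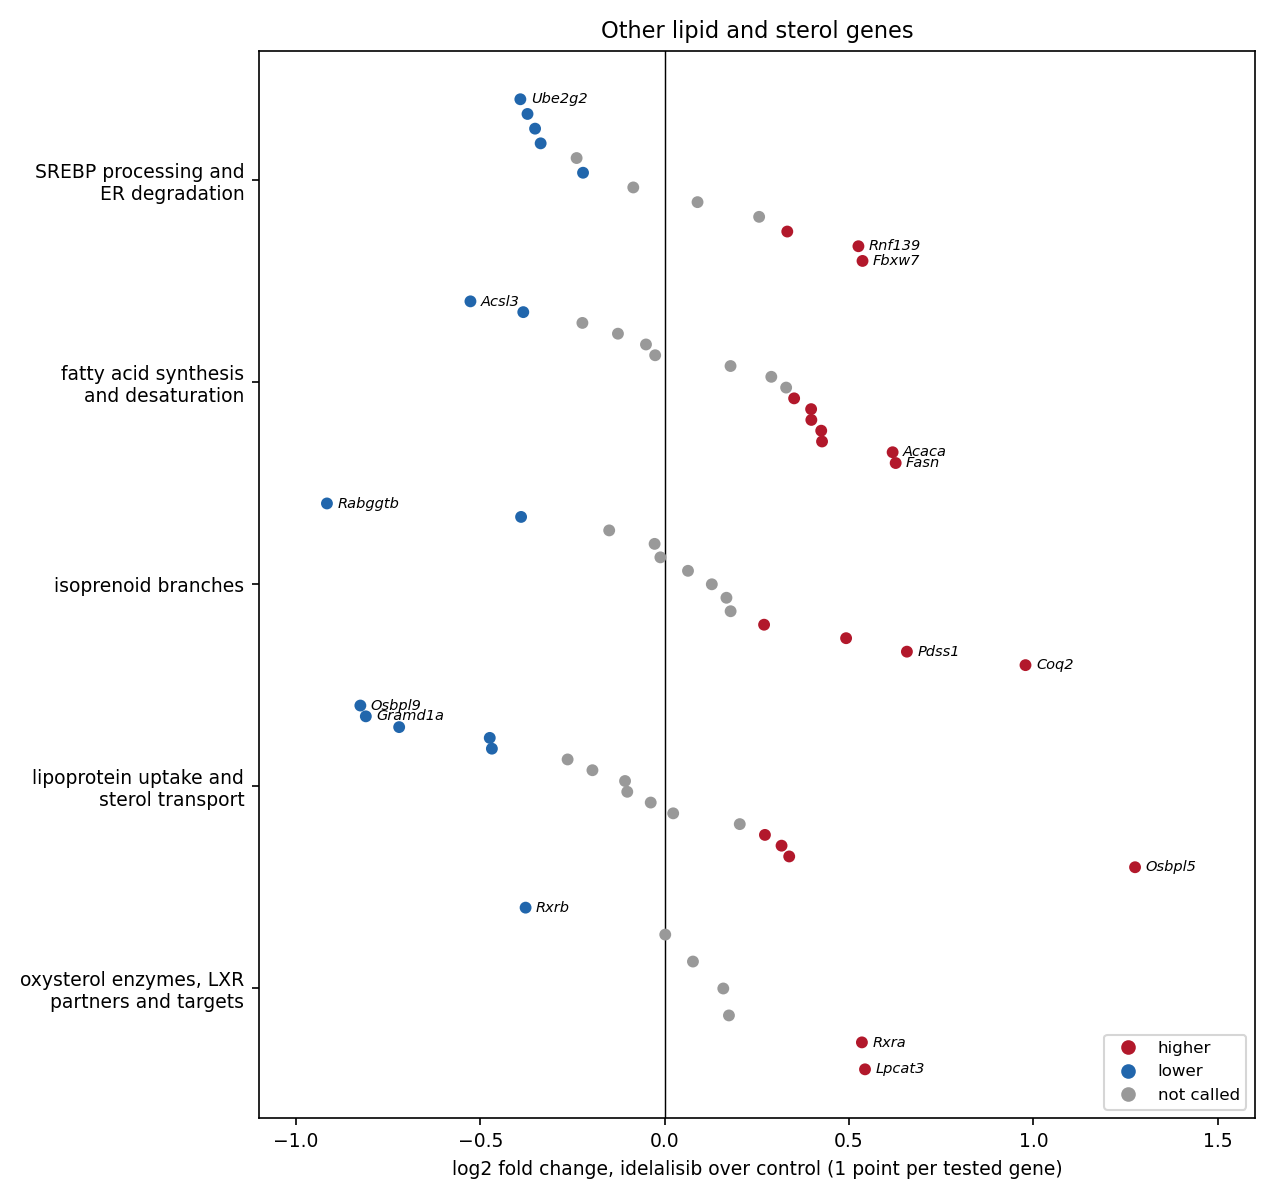
Log2 fold change (idelalisib over control) of each tested gene in 5 lists of related lipid genes, 1 point per gene, coloured by the edgeR call; up to 3 called genes with the largest change are named per list. Called genes lie on both sides of 0 in every list, and the fatty acid list has the most on the higher side.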

How the data were processed

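RNA from 6 libraries was measured by sequencing of poly(A) RNA. The authors deposited unnormalised counts of reads for each gene. The tools named are fastp, HISAT2 2.0.5 and featureCounts 1.5.0-p3, with build mm10, per the submitters' processing notes. How strand and multi-mapping reads were handled, and the annotation release, is not given in the sources used here. Gene lengths are the authors' values.

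Genes were filtered with filterByExpr (minimum count 10, minimum total 15), scaled with TMM and tested over the whole table with edgeR 4.0.16 (R 4.3.3; quasi-likelihood F test, group alone), with Benjamini-Hochberg adjustment and a threshold of 0.05. Each SE is the absolute log2 fold change divided by the square root of F. On simulated counts with known changes the test recovered most changed genes, and the share of false calls was above the nominal threshold. In these data 44.6% of all genes tested were called, and changes as small as 0.20 in log2 units (Insig1) passed. Whether the recovery and the share of false calls carry over to such data was not tested. Calls near the threshold are the least secure. Alternatives were other scalings, filters and thresholds, DESeq2 1.42.0, limma-voom (limma 3.58.1), protein-coding genes alone, a replicate block and each library left out. Summing reads with near-identical copies was added after seeing the data.

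Values in every library are given for called genes with an absolute log2 fold change of at least 0.5 and for Srebf1, Srebf2, Scap, Insig1, Nr1h2 and Nr1h3, and for others where a statement rests on them. From related lists up to 3 called genes with the largest change and at least 1 CPM are named, and called genes going against the majority. The genes and lists were chosen with earlier results of these data known. Overlaps and shared 50-base words were counted in GENCODE M21, where 31 of 34 genes have identical coordinates. Promoters are from RefSeq (GRCm38.p6), taking the start nearest to the gene model's 5′ end.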

Additional observations from a re-analysis of the deposited data

How the results depend on the processing

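The 8 calls of Acat2, Hmgcs1, Sqle, Dhcr7, Mylip, Npc1, Abca1 and Soat2 held in all 16 alternatives, and the other 6 called genes (Mvk, Mvd, Fdps, Fdft1, Insig1, Stard4) each lost the call in some, always including fits with 1 library left out. Of 20 genes not called, 13 passed in at least 1 alternative. Of the 34 genes, 9 were higher and 5 lower; the counts were 16 and 3 scaled by library size alone and 5 and 3 at an adjusted p under 0.01, and 8 were lower among protein-coding genes alone. With 1 library left out they ranged from 5 to 10 higher and 3 to 8 lower (5 and 3 without control replicate 1 or 2, 7 and 3 without control replicate 3 or idelalisib replicate 1, 10 and 8 without idelalisib replicate 2). Of the enzymes, 11 were higher by library size alone; the lower enzymes numbered 1 with upper-quartile scaling, 0 by library size alone, 0 at the stricter threshold, and 0 to 3 with 1 library left out (0 without any control library or idelalisib replicate 1, 3 without idelalisib replicate 2), when 4 to 6 were higher. At that threshold 2138 of all genes were higher. The cause of these shifts was not tested.

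Same-numbered libraries did not deviate together (correlations 0.0764, -0.132 and -0.101). With 3 libraries per group these values cannot settle whether the numbers pair the samples. With the replicate number as a block 2910 genes were higher and 3051 lower, with 7 and 4 of the 34 and 1 lower enzyme.

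Signs turned in 7 genes, none of them called and most near 0. Lss was at 0.0201 with upper-quartile scaling and 0.14 by library size alone, Tm7sf2 at 0.11 and Soat1 at 0.0528 by library size alone, and Scap at 0.0050 with upper-quartile scaling and 0.12 by library size alone. Ebp was at -0.0035 with RLE scaling and with DESeq2, -0.0059 with limma-voom, -3.13e-05 with the filter of 1 CPM, -0.0238 among protein-coding genes and -0.0055 with the block, and Srebf1 at -0.0014 among protein-coding genes. With 1 library left out the log2 fold change ranged from -0.0422 to 0.0322 for Lss, -0.24 to 0.0821 for Tm7sf2, -0.0145 to 0.22 for Msmo1, -0.0480 to 0.12 for Ebp, -0.0603 to 0.12 for Srebf1 and -0.0789 to 0.0292 for Scap. The cause was not tested. Depth limits Nr1h3 and Mylip most, which had 3 to 24 and 24 to 64 counts.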
